A study of Mus musculus with 9 samples.

Results

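Foxf1, Foxf2, Foxl1, Foxc1, Foxc2, Foxp1 and Foxp2 are forkhead genes, which encode transcription factors that bind DNA through a shared winged-helix domain, and all 7 have been described in mesenchyme of the embryo. They were taken by gene symbol from the 24016 identifiers of the count table, and all 7 were found and passed the filter on low counts. Foxf1 and Foxf2 mark the mesenchyme around the gut tube, and Foxl1 marks the cells directly under the gut epithelium. In mouse gut, hedgehog ligands from the epithelium signal to that mesenchyme through Smoothened and the Gli factors, and Foxf1 and Foxl1 are known among the genes that respond. Foxc1 and Foxc2 act in vessels, lymphatics, kidney and somites, and Foxp1 and Foxp2 are repressors that act in lung, muscle and nervous tissue.

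The RNA-seq libraries came from E14.5 intestines of C57BL/6 mice with the wild type genotype, in 3 groups of 3. The first group was whole intestine given Cyclopamine, an inhibitor of Smoothened, the second was separated mesenchyme with agent none, and the third was separated epithelium with agent none. The design text gives 24 hours of transwell culture and does not state to which of these tissues it applied. Untreated whole intestine was not analysed here, so in each comparison with treated tissue the drug, the presence of both layers and any difference in culture cannot be told apart.

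Total counts were 14325792 to 18274881 in cyclopamine intestine, 9739394 to 26357115 in mesenchyme and 19934048 to 22836297 in epithelium. Rn45s, a precursor of ribosomal RNA, made up 59.06% of mesenchyme 1 (95% Wilson interval 59.03% to 59.09%, counting error only), and 3284702 counts remained there without the abundant RNAs Rn45s, Lars2 and Mir6236. The other libraries held 14122486 to 26302836 counts without them, so values of mesenchyme 1 rest on the fewest reads. Levels below are CPM, each gene's counts over the TMM-scaled library size and times 1e6. Differences are log2 values from edgeR's quasi-likelihood test fitted to all 9 libraries and 15699 genes, with Benjamini-Hochberg adjusted p-values and a threshold of 0.05. Nothing in the labels ties a library to its own embryo, so each p-value reflects the spread among these libraries only, which may be technical.

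The tissue labels were checked against marker lists. The 12 epithelial markers summed to 1949 to 2339 CPM in cyclopamine intestine, 149 to 179 CPM in mesenchyme and 4898 to 5269 CPM in epithelium. The 22 mesenchyme structural genes, such as collagens, summed to 7568 to 8185 CPM in cyclopamine intestine, 18265 to 24454 CPM in mesenchyme and 450 to 1981 CPM in epithelium, where library 1 was highest. The treated libraries thus held transcripts of both layers, and the epithelium libraries held traces of mesenchymal ones. In such bulk tissue, fewer cells of a type and less RNA per cell cannot be told apart.

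The part of a forkhead protein that reads DNA is short and much alike among relatives. The following lines give, for the Foxf, Foxl and Foxc genes, the 39 coding bases that span the DNA-recognition helix, 5′ to 3′, from GENCODE transcripts of GRCm38. Capitals mark bases that differ from Foxf1, and the set is shown to let these genes be compared in that part.
Foxf1: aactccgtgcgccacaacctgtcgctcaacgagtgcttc
Foxf2: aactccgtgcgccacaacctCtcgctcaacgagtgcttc
Foxl1: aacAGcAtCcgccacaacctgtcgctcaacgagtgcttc
Foxc1: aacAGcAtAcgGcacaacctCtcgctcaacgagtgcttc
Foxc2: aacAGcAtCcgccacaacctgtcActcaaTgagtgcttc

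Foxf2 differed from Foxf1 at 1 of the 39 bases and at 0 of the 13 residues they encode. Foxl1 differed at 4 bases, and Foxc1 and Foxc2 at 6 bases each, and each of these 3 genes differed from Foxf1 at 1 residue. Foxp1 and Foxp2, whose lines are not shown, were less alike, differing from Foxf1 at 14 and 16 bases and at 3 residues each. Over whole transcripts the members shared little sequence: words of 50 bases were shared only between Foxc1 and Foxc2, where 4 words made up 0.069% of those of Foxc1 and 0.149% of those of Foxc2. Foxf1, Foxc2 and Foxl1 lie on chromosome 8, Foxf2 and Foxc1 on chromosome 13, and Foxp1 and Foxp2 on chromosome 6.

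The first comparison asked which layer held each transcript. All 7 genes were higher in mesenchyme than in epithelium, with ratios of mean CPM between 36.6 for Foxf2 and 1.28 for Foxp1. The same call was made for 35.1% of all genes tested and the opposite one for 34.6%, and the median log2 difference was 4.13 over the 7 genes and -0.04 over all genes. The 3 values of mesenchyme lay above the 3 of epithelium for each of the 7 genes, as they did for 35.3% of all genes. The word mesenchymal therefore described Foxf1, Foxf2, Foxl1 and Foxp2 by size. It was not borne out for Foxp1, which both layers held at like levels, and rested on few reads for Foxc1 and Foxc2. The members were chosen with earlier results of these data known, so the calls and the median are a description of the list.

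The second comparison was the one the authors deposited for the treated libraries, cyclopamine intestine against mesenchyme. Foxl1, Foxf2 and Foxf1 were lower in cyclopamine intestine, at 3.25%, 13.9% and 26.8% of their mean CPM in mesenchyme, while Foxp1, Foxp2, Foxc1 and Foxc2 did not pass the test. Of all genes tested, 20.5% were called lower and 20.8% higher. For the 3 genes called lower, no treated library reached a mesenchyme library, as for 26.8% of all genes. The median log2 difference was -0.62 over the 7 genes and -0.02 over all genes. Both comparisons use the same 3 mesenchyme libraries, so a high mesenchyme value enters each of them. Without mesenchyme 1, the library with few reads, cyclopamine intestine minus mesenchyme was -4.99 for Foxl1, -2.72 for Foxf2 and -1.84 for Foxf1 on the log2 scale, each still past the threshold.

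**Figure D1:**
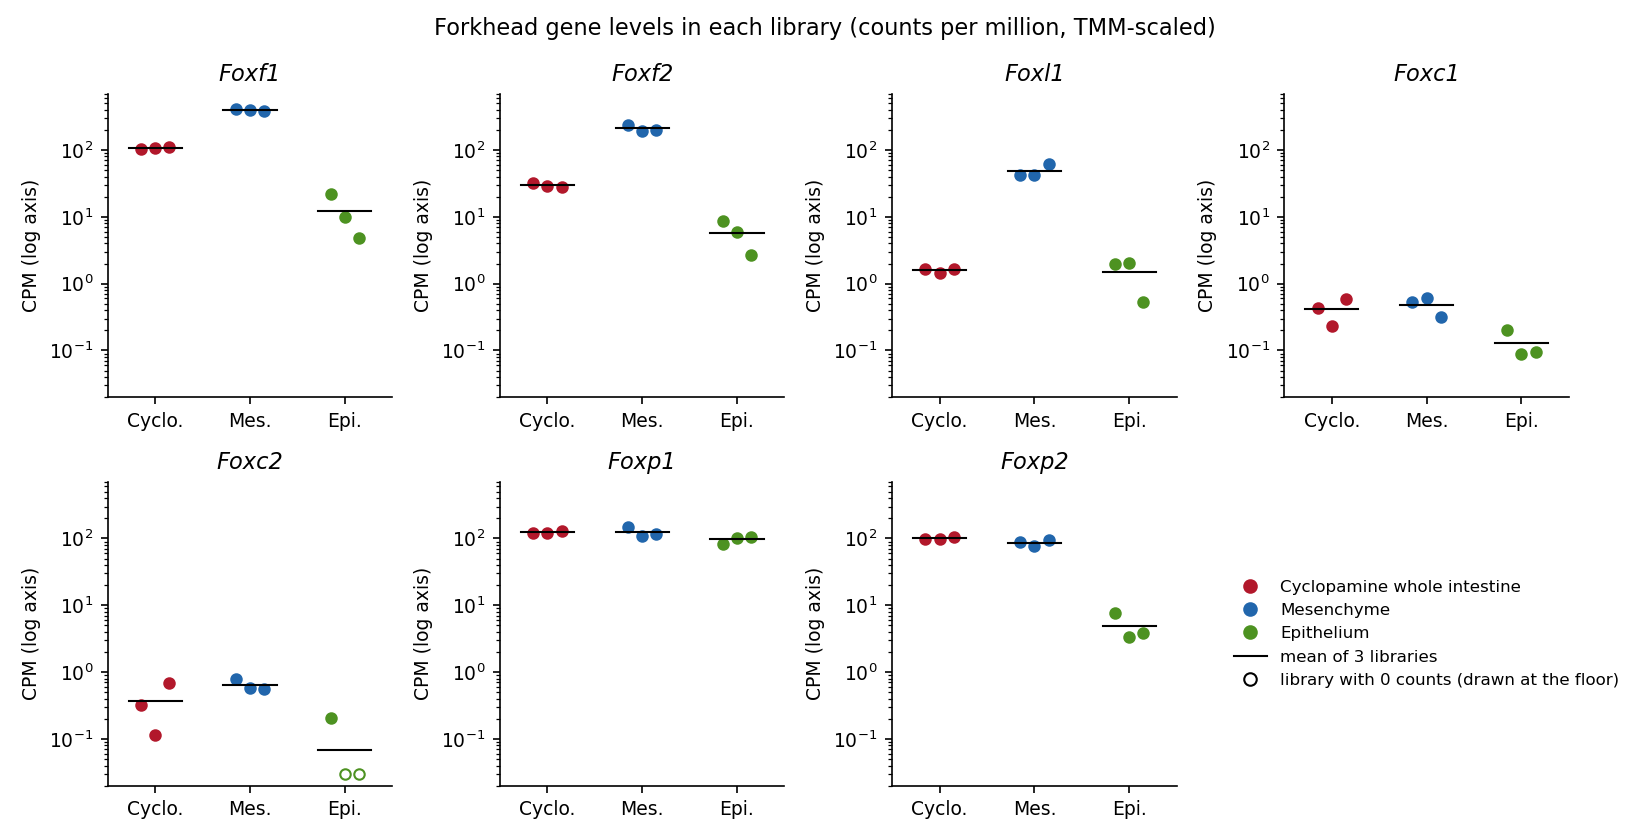
CPM on a log axis for the 7 forkhead genes in each of the 9 libraries, with cyclopamine whole intestine at left, then mesenchyme and epithelium. Each point is 1 library, lines are means of 3 libraries, and open points are libraries with 0 counts. Foxl1 sits at 1.45 to 1.66 CPM in cyclopamine intestine and 41.8 to 61.5 CPM in mesenchyme, whereas Foxp1 lies between 83.6 and 147 CPM in all libraries.

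Foxf1, the forkhead factor of the gut mesenchyme and its muscle layer, had 102, 108 and 109 CPM in cyclopamine intestine, 415, 391 and 388 CPM in mesenchyme, and 21.9, 10.03 and 4.82 CPM in epithelium. The 3 groups did not overlap, with treated tissue between the layers. Mesenchyme lay above epithelium without overlap for 35.3% of all genes, and treated tissue below mesenchyme for 26.8%. The share of genes with all 3 groups in this order was not computed. The log2 difference was 5.02 ± 0.47 (SE, adjusted p = 1.08e-05) for mesenchyme minus epithelium and -1.90 ± 0.41 (adjusted p = 0.00534) for cyclopamine intestine minus mesenchyme. In cyclopamine intestine Foxf1 stayed 3.12 ± 0.43 above epithelium on the log2 scale (adjusted p = 0.000204). Epithelium 1, which had the highest Foxf1 value of its group, also had the highest sum of mesenchyme structural genes. Without epithelium 1 the log2 difference of Foxf1 was 5.82 for mesenchyme minus epithelium and 3.94 for cyclopamine intestine minus epithelium, and both calls held (adjusted p = 9.53e-07 and 8.43e-06).

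Foxf2, the close relative of Foxf1 that is known in mouse to be needed for gut mesenchyme and palate, had 32.0, 28.8 and 27.6 CPM in cyclopamine intestine. Its mesenchyme values were 239.9, 194 and 202 CPM, and its epithelium values were 8.80, 5.93 and 2.67 CPM. As for Foxf1, the 3 groups stood apart and treated tissue lay between the layers, an order whose share over all genes was not computed. Foxf2 was 5.18 ± 0.37 higher in mesenchyme than in epithelium on the log2 scale (SE, adjusted p = 2.51e-06), and it differed by -2.85 ± 0.33 in cyclopamine intestine minus mesenchyme (adjusted p = 0.000191). Cyclopamine intestine minus epithelium was 2.34 ± 0.33 (adjusted p = 0.00024).

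Foxl1, the factor of the cells just under the epithelium, had 1.65, 1.45 and 1.66 CPM in cyclopamine intestine, 42.9, 41.8 and 61.5 CPM in mesenchyme, and 1.96, 2.01 and 0.525 CPM in epithelium. Treated tissue stood far below mesenchyme and inside the range of epithelium. These values came from 25 to 36 counts in cyclopamine intestine, 162 to 1767 counts in mesenchyme and 11 to 48 counts in epithelium. The log2 difference was -4.94 ± 0.40 for cyclopamine intestine minus mesenchyme (SE, adjusted p = 2.67e-05) and 5.01 ± 0.40 for mesenchyme minus epithelium (adjusted p = 4.16e-06). Against epithelium, cyclopamine intestine differed by 0.07 ± 0.41 (adjusted p = 0.896), with a 95% interval of -0.851 to 0.987. That interval covers nearly 2-fold in either direction, so equal levels are not shown.

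Foxp2, a repressor of the FOXP subfamily known in lung, heart and brain, had 99.9, 98.9 and 105 CPM in cyclopamine intestine. It had 87.7, 77.3 and 94.4 CPM in mesenchyme and 7.61, 3.36 and 3.82 CPM in epithelium. Each treated library was above each mesenchyme library, an ordering found for 28% of all genes, but the log2 difference of 0.23 ± 0.25 did not pass the test (SE, adjusted p = 0.489, 95% interval -0.331 to 0.784). Foxp2 was higher in mesenchyme than in epithelium by 4.13 ± 0.29 (adjusted p = 2.3e-06) and in cyclopamine intestine than in epithelium by 4.35 ± 0.29 (adjusted p = 6.26e-06).

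Foxp1, the paralog of Foxp2 on the same chromosome, had 121, 121 and 131 CPM in cyclopamine intestine, 147, 109 and 116 CPM in mesenchyme and 83.6, 102 and 105 CPM in epithelium. All 9 values lay close together. The difference of mesenchyme minus epithelium, 0.35 ± 0.14 on the log2 scale, was at the threshold (SE, adjusted p = 0.049), and without mesenchyme 1 it was 0.21 (adjusted p = 0.0772). The calls on Foxp1 against epithelium were also lost without several other libraries. Cyclopamine intestine minus mesenchyme was 0.01 ± 0.14 (adjusted p = 0.956), with a 95% interval of -0.307 to 0.331, and cyclopamine intestine minus epithelium was 0.36 ± 0.14 (adjusted p = 0.0472).

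Foxc1 and Foxc2, which act together in vessel and lymphatic development in mouse, were near the limit of detection. Foxc1 had 8, 4 and 13 counts in cyclopamine intestine, 2, 14 and 9 counts in mesenchyme, and 5, 2 and 2 counts in epithelium. Foxc2 had 6, 2 and 15 counts in cyclopamine intestine, 3, 13 and 16 counts in mesenchyme, and 5, 0 and 0 counts in epithelium, where the counts of 0 allow up to 0.131 and 0.143 CPM in epithelium 2 and 3 at 3 counts (counting error only). In CPM, Foxc1 averaged 0.418 ± 0.183 in cyclopamine intestine, 0.487 ± 0.157 in mesenchyme and 0.129 ± 0.0655 in epithelium (SD, n = 3 each). Foxc2 averaged 0.375 ± 0.291 in cyclopamine intestine, 0.641 ± 0.133 in mesenchyme and 0.0682 ± 0.118 in epithelium (SD, n = 3 each).

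The layer difference passed for both genes, at 1.79 ± 0.57 for Foxc1 (SE, adjusted p = 0.0177) and 2.95 ± 0.96 for Foxc2 (adjusted p = 0.0201). Either call was lost without epithelium 2 or without epithelium 3, and the authors' deposited table gave adjusted p = 0.333 for Foxc1 and 0.0771 for Foxc2 in the same comparison. Between cyclopamine intestine and mesenchyme neither difference was detectable at this depth: it was -0.14 ± 0.50 for Foxc1 (adjusted p = 0.91, 95% interval -1.27 to 0.991) and -0.62 ± 0.78 for Foxc2 (adjusted p = 0.549, 95% interval -2.38 to 1.14). Without cyclopamine intestine 3 the value for Foxc2 was -1.39 (adjusted p = 0.296). Foxc1 and Foxc2 are known to act in vessels and lymphatics. The 16 endothelial markers summed to 461 to 605 CPM in cyclopamine intestine, 844 to 1017 CPM in mesenchyme and 33.0 to 78.8 CPM in epithelium. Single markers differed widely in level: in mesenchyme Flt4 averaged 45.6 CPM and Lyve1 1.42 CPM. The part of such cells in the Foxc1 and Foxc2 counts was not tested.

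In the third comparison, cyclopamine intestine against epithelium, 5 of the 7 genes were higher in cyclopamine intestine and none was lower. They were Foxf1, Foxf2, Foxc1, Foxp1 and Foxp2, while 32.1% of all genes were called higher and 29.8% lower. Of 1194 genes at 16-fold or more higher in mesenchyme than in epithelium, 1143 were called higher here, with a median log2 difference of 3.82. Those genes were picked on epithelium libraries that this difference also uses. Foxf1 at 3.12 and Foxf2 at 2.34 lay below that median and Foxp2 at 4.35 above it, while Foxl1 at 0.07 was not called. Foxc1 differed by 1.65 ± 0.55 on the log2 scale (SE, adjusted p = 0.0261), a call lost without any one of 4 libraries. Foxc2 differed by 2.32 ± 0.98 and missed the threshold (adjusted p = 0.063).

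**Figure D2:**
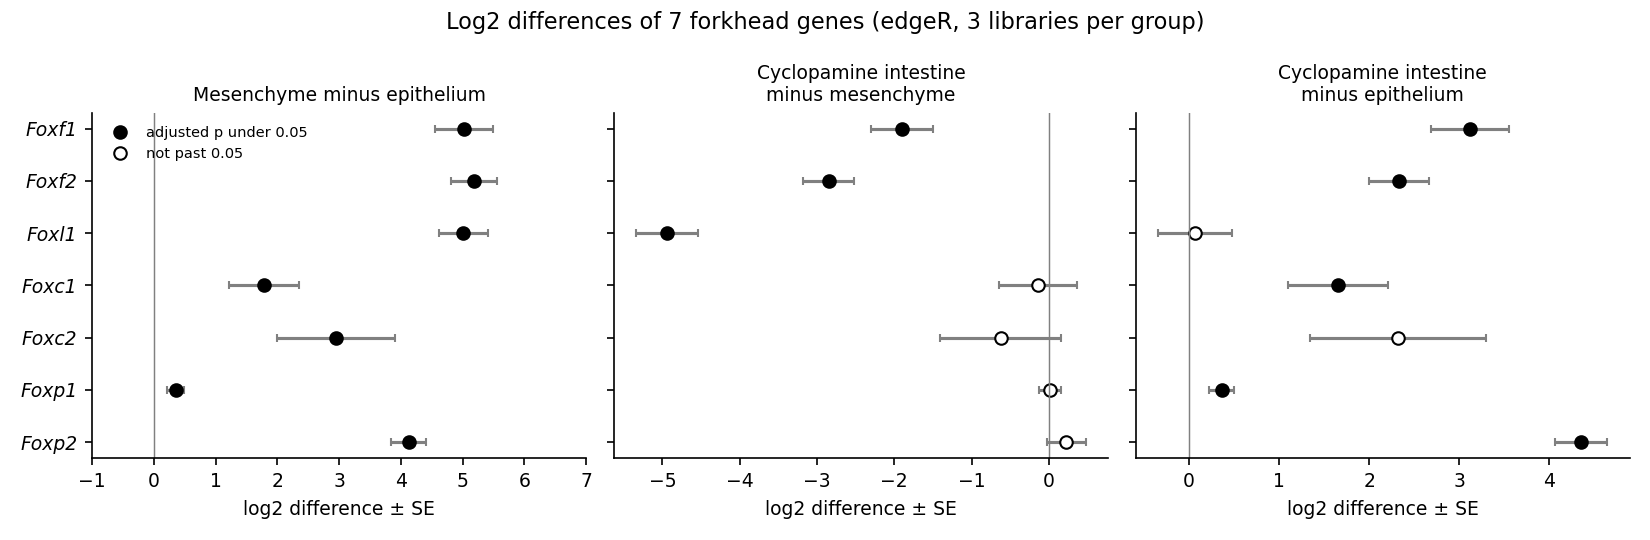
Log2 difference with its SE from edgeR for each of the 7 forkhead genes in the 3 comparisons, filled where the adjusted p is under 0.05. Foxl1 lies at 5.01 for mesenchyme minus epithelium, at -4.94 for cyclopamine intestine minus mesenchyme and at 0.07 for cyclopamine intestine minus epithelium.

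The authors' deposited tables gave like sizes from their own test. In the authors' deposited table the log2 fold of cyclopamine intestine over mesenchyme was -4.98 for Foxl1, -2.89 for Foxf2, -1.94 for Foxf1, 0.19 for Foxp2 and -0.04 for Foxp1. The authors' deposited table marked Foxf1, Foxf2, Foxl1 and Foxp2 as higher in mesenchyme, and gave a muscle mark to Foxf1, Foxf2 and Foxp2 but not to Foxl1. It called Foxp1 not different between layers (adjusted p = 0.321 in the authors' deposited table).

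To order the genes by level, CPM was divided by transcript length in kilobases. In mesenchyme Foxf1 led with a mean of 164.9 CPM per kilobase, followed by Foxf2 with 89.8. Foxl1 with 18.0, a range of 15.5 to 22.7, and Foxp1 with 17.3, a range of 15.1 to 20.5, overlapped. Foxp2 had a mean of 12.8 CPM per kilobase while Foxc2 and Foxc1 were the lowest, with 0.235 and 0.0833.

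In cyclopamine intestine the order by CPM per kilobase was Foxf1 with a mean of 44.2, Foxp1 with 17.4, Foxp2 with 14.96, Foxf2 with 12.5 and Foxl1 with 0.586. These 5 genes did not overlap in their ranges. Foxl1 was thus placed with Foxp1 by level in mesenchyme. In treated tissue it lay below Foxf2 and still above Foxc2 with 0.138 and Foxc1 with 0.0716, without overlap. In epithelium Foxp1 was the highest, with a mean of 13.5 CPM per kilobase, above Foxf1 with 5.07.

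Because the treated libraries hold epithelium as well, the forkhead genes were set against genes of the same layer. There were 1194 genes at 16-fold or more higher in mesenchyme than in epithelium, and their median log2 difference in cyclopamine intestine minus mesenchyme was -0.77, with 10% of them below -2.10 and 10% above 0.19. Of these genes 31.2% were called lower in cyclopamine intestine. Among the 1194, 9 genes had a lower value than Foxl1, 53 a lower value than Foxf2 and 152 a lower value than Foxf1. Foxp2 stood near the other end, with 110 genes above it. These ranks are a description, since the 1194 genes were picked on mesenchyme libraries that the difference also uses.

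Other library scalings moved all of these values together. When the mesenchyme and treated libraries were scaled to 21 mesenchyme structural genes, the median of all genes went up to 1.13 on the log2 scale, against -0.02 with TMM, and 11186 genes were called higher and 219 lower, against 3258 and 3211 with TMM. In that scaling Foxl1 was at -3.79 (adjusted p = 1.6e-05) and Foxf2 at -1.74 (adjusted p = 0.00134), a direction that 1.39% of genes shared as a call. Foxf1 was at -0.78 and no longer called (adjusted p = 0.113). Foxp2 at 1.36 (adjusted p = 0.0012) and Foxp1 at 1.11 (adjusted p = 0.00101) were called higher in cyclopamine intestine, close to the shift of all genes and as 71.3% of genes were.

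A scaling chosen after seeing the data used 1174 of the genes at 16-fold or more higher in mesenchyme, those with counts in all 6 libraries, and gave values in between. The median of all genes was then 0.738, Foxl1 was at -4.18, Foxf2 at -2.07 and Foxf1 at -1.13, all past the threshold (adjusted p = 2.8e-05, 0.000454 and 0.0322). Foxp2 was at 1.00 and Foxp1 at 0.79 (adjusted p = 0.00667 and 0.000874), where 56.2% of all genes were called higher and 3.47% lower. Foxc1 and Foxc2 turned positive in both scalings and stayed below the threshold for a call.

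**Figure D3:**
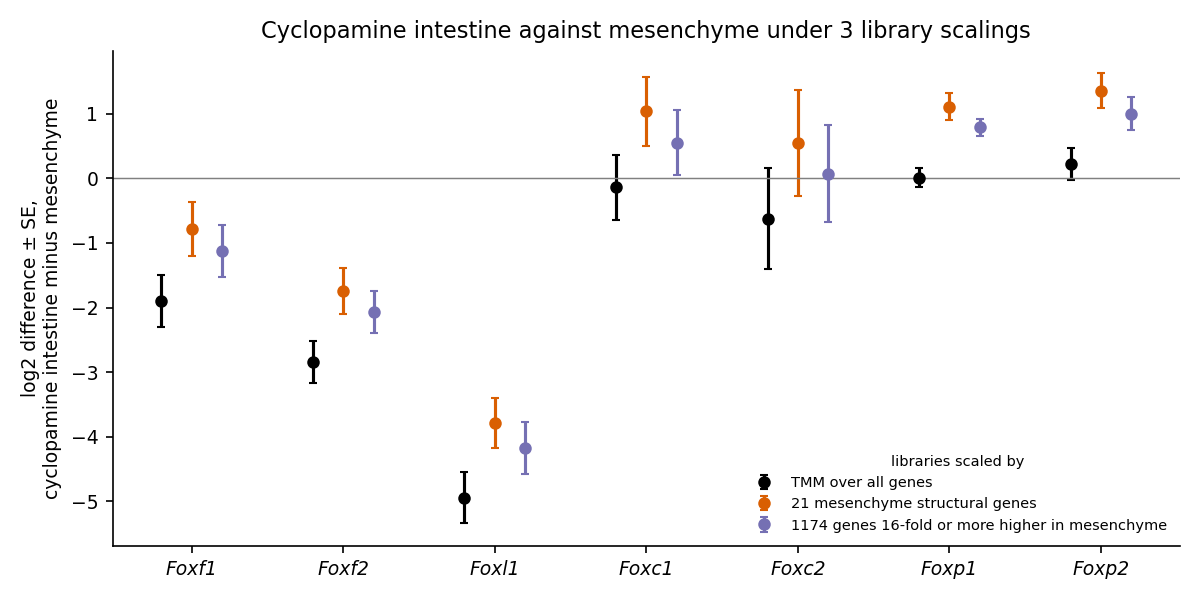
Log2 difference with its SE for cyclopamine intestine minus mesenchyme under 3 scalings of the libraries (TMM over all genes, 21 mesenchyme structural genes, 1174 genes higher in mesenchyme). Foxl1 stays between -4.94 and -3.79 and Foxf2 between -2.85 and -1.74, whereas Foxp1 and Foxp2 are near 0 with TMM and at 0.79 to 1.36 in the others.

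Ratios between 2 members inside a library do not depend on the scaling. The log2 ratio of Foxl1 to Foxf1 counts was -5.94, -6.20 and -6.03 in cyclopamine intestine, -3.27, -3.23 and -2.66 in mesenchyme and -3.47, -2.31 and -3.14 in epithelium. Treated libraries stood 3.00 log2 units below mesenchyme ones with no overlap, and the mesenchyme and epithelium libraries overlapped. An exact two-sided permutation test of 3 against 3 libraries gave p = 0.1, the smallest it allows, and an adjusted value of 0.129 over the 9 ratios compared.

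The ratio of Foxl1 to Foxf2 was also lower in cyclopamine intestine, with means of -4.19 against -2.14 in mesenchyme and a difference of -2.06 (exact permutation p = 0.1, adjusted 0.129). Against Foxp2 the log2 ratio of Foxl1 averaged -5.975 in cyclopamine intestine and -0.844 in mesenchyme, again with no overlap (exact permutation p = 0.1, adjusted 0.129). Within the Foxf pair, the log2 ratio of Foxf1 to Foxf2 was 1.68, 1.91 and 1.99 in cyclopamine intestine, 0.79, 1.01 and 0.94 in mesenchyme and 1.31, 0.76 and 0.85 in epithelium. The treated libraries did not overlap the others, and the difference from mesenchyme was 0.95 (exact permutation p = 0.1, adjusted 0.129). The ratio of Foxp1 to Foxp2 overlapped between cyclopamine intestine and mesenchyme, with means of 0.30 and 0.51 (exact permutation p = 0.3, adjusted 0.3), and was 4.38 in epithelium. The ratio of Foxc1 to Foxc2 overlapped too, with a difference of 0.74 (exact permutation p = 0.2, adjusted 0.225).

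Foxf1, Foxc2 and Foxl1 are neighbours on their chromosome, and Foxf2 and Foxc1 lie near Foxq1 on theirs, as ordered in the RefSeq gene table for GRCm38. Neighbouring genes were compared 2 to each side. Fendrr, a long noncoding RNA next to Foxf1 that is known from lateral mesoderm of the mouse embryo, had 15.9, 14.6 and 14.8 CPM in cyclopamine intestine, 282, 101 and 93.4 CPM in mesenchyme and 7.04, 2.44 and 1.38 CPM in epithelium. It was lower in each treated library than in each mesenchyme library, as were 26.8% of all genes. Its highest mesenchyme value came from mesenchyme 1, the library with the fewest reads, and Fendrr was not refitted without that library. Cyclopamine intestine minus mesenchyme was -3.38 ± 0.58 on the log2 scale (SE, adjusted p = 0.00183), and mesenchyme minus epithelium was 5.42 ± 0.65 (adjusted p = 5.39e-05). Mthfsd, which lies between Foxf1 and Foxc2 and encodes a folate enzyme-like protein, was at 0.06 for mesenchyme minus epithelium and -0.40 for cyclopamine intestine minus mesenchyme (adjusted p = 0.705 and 0.0343).

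The noncoding RNA 1700018A04Rik next to Foxf2 had 0.212, 0.232 and 0.184 CPM in cyclopamine intestine, 3.71, 2.78 and 2.68 CPM in mesenchyme, and 0.123, 0.0436 and 0.143 CPM in epithelium. Its log2 difference was -3.79 ± 0.38 for cyclopamine intestine minus mesenchyme (SE, adjusted p = 9.15e-05) and 4.77 ± 0.41 for mesenchyme minus epithelium (adjusted p = 6.82e-06). Foxq1, another forkhead gene and the next one along, went the other way between layers, at -1.002 for mesenchyme minus epithelium (adjusted p = 0.000452). No source used here states a strand setting, so reads of a noncoding RNA that overlaps a forkhead transcript could not be told from it.

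The neighbours of the Foxp genes did not share 1 pattern. Eif4e3, a cap-binding protein gene beside Foxp1, was 2.80 higher in mesenchyme than in epithelium on the log2 scale (adjusted p = 6.15e-06), where Foxp1 differed by 0.35. Mdfic beside Foxp2 was 1.92 higher in mesenchyme and 0.14 in cyclopamine intestine minus mesenchyme (adjusted p = 9.98e-06 and 0.536).

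**Figure D4:**
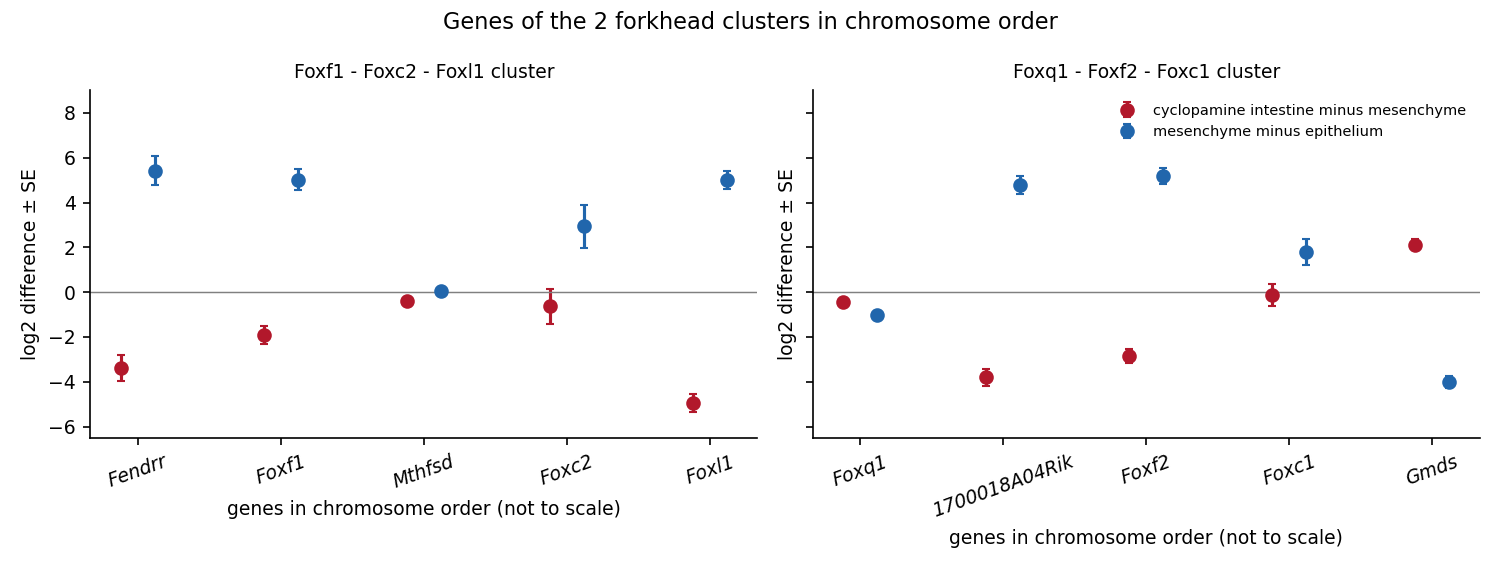
Log2 difference with its SE for genes around Foxf1 and around Foxf2, drawn in chromosome order and not to scale. In each pair the left point is cyclopamine intestine minus mesenchyme and the right point is mesenchyme minus epithelium. Fendrr, Foxf1, Foxl1, 1700018A04Rik and Foxf2 are above 4.7 between layers and below -1.8 in treated tissue, and the other 5 genes are not.

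Promoters of Fendrr and Foxf2 are given as examples. Both transcripts moved the same way in both comparisons, as did Foxf1, Foxl1 and 1700018A04Rik. Of the members, the promoter source held only Foxf2, Foxc1 and Foxp1, so Foxf1 and Foxl1 could not be shown. The lines hold the 250 bases before each start, from RefSeq on GRCm38.p6, for Fendrr at chr8:121083111-121083360 on the minus strand and for Foxf2 at chr13:31625566-31625815 on the plus strand. Capitals mark a forkhead motif, GTAAACA, searched on both strands.
Fendrr: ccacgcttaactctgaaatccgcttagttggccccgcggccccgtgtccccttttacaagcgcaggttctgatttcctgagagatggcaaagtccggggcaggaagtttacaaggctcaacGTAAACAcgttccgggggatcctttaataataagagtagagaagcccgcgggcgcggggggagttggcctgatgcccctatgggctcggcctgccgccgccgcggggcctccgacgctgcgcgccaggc
Foxf2: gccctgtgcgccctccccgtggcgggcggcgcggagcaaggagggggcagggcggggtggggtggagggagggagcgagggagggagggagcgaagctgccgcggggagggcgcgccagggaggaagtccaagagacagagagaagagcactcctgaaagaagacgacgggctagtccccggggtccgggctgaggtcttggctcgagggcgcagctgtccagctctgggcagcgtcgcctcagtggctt

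The Fendrr window held 1 forkhead motif, and 3.17% of 32851 promoter windows of that length held one. Neither window held the Gli motif GACCACCCA on either strand, which 0.225% of windows held. A match describes letters only. G and C made up 62.0% of the Fendrr window and 71.6% of the Foxf2 window, against a median of 52.4% over all windows.

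The hedgehog pathway was followed because Foxf1 and Foxl1 are known to lie downstream of it in mouse gut. Of its 15 genes tested, 7 were lower and 2 higher in cyclopamine intestine than in mesenchyme, with a median log2 difference of -0.82. The 2 higher genes were the epithelial ligands Shh and Ihh. Among all genes tested, 20.5% were called lower in this comparison and 20.8% higher. The target Gli1, a Gli factor that the pathway itself induces, averaged 1.60 ± 0.866 CPM in cyclopamine intestine, 215 ± 13.8 CPM in mesenchyme and 6.96 ± 5.65 CPM in epithelium (SD, n = 3 each).

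Gli1 differed by -7.07 ± 0.64 on the log2 scale in cyclopamine intestine minus mesenchyme (SE, adjusted p = 5.41e-05) and Hhip by -4.85 ± 0.77 (adjusted p = 0.00113). Foxl1 at -4.94 lay between these 2 genes, and Foxf2 at -2.85 lay near the receptor Ptch1 at -3.22 (adjusted p = 0.000191). Foxf1 at -1.90 was nearer 0 than these targets. Other pathway genes did not pass, such as Gli3 at -0.44, Gas1 at -0.77 and Boc at -1.06 (adjusted p = 0.195, 0.167 and 0.0782). Genes outside this list had values like those of Foxl1 and Foxf2, such as Col6a4 at -4.68 and Bmp3 at -2.78. Whether hedgehog signalling set the forkhead values was not tested. In cyclopamine intestine minus epithelium, Ptch1 was at 0.09, Hhip at 0.26 and Foxl1 at 0.07 (adjusted p = 0.832, 0.772 and 0.896), whereas Gli1 was lower in cyclopamine intestine, at -2.13 (adjusted p = 0.00989).

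Signalling genes that have been linked to Foxf1, Foxf2 or Foxl1 in mouse gut were Bmp2, Bmp4, Wnt5a and Sfrp1. All 4 were higher in mesenchyme than in epithelium, and 2 were lower in cyclopamine intestine than in mesenchyme. Of all genes tested, 35.1% and 20.5% were given these calls. Bmp4, a ligand of the gut mesenchyme, averaged 23.7 ± 1.20 CPM in cyclopamine intestine and 89.4 ± 9.58 CPM in mesenchyme (SD, n = 3 each), a log2 difference of -1.92 (adjusted p = 0.00348) next to -1.90 for Foxf1. Bmp2 differed by -0.62 (adjusted p = 0.0499). Wnt5a, a ligand, and Sfrp1, a secreted Wnt inhibitor, were at -0.99 and -0.11 and did not pass (adjusted p = 0.172 and 0.779).

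Other transcription factors of gut mesenchyme gave a second yardstick. Of 22 tested, 19 were higher in mesenchyme than in epithelium, and in cyclopamine intestine 5 were lower and 1 higher than in mesenchyme, with a median log2 difference of -0.43. The lowest of those named was Snai1, at -2.74 (adjusted p = 0.000795), and Hlx and Tcf21 were at -0.42 and -0.07 (adjusted p = 0.232 and 0.912). Of 21 mesenchyme structural genes tested, 11 were lower and none higher in cyclopamine intestine, with a median of -1.15. Of 12 smooth muscle markers, 1 was lower and 1 higher, and of 16 endothelial markers, 4 were lower and 1 higher. Of 13 enteric neural markers, 2 were lower and 1 higher, and of 10 leukocyte markers, 3 were lower. Of the Cajal cell markers Kit, Ano1 and Etv1, 2 were lower, and of 4 mesothelial markers 2 were higher. All 12 epithelial markers were higher in cyclopamine intestine than in mesenchyme. The shares of all genes tested were 20.5% lower and 20.8% higher in that comparison, and 35.1% higher in mesenchyme than in epithelium. The part of these markers in the Foxf1, Foxf2 and Foxl1 values was not tested.

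Among all other genes, those whose profile over the 9 libraries was nearest to each forkhead gene were found by the root mean square (RMS) difference of centred log2(CPM + 0.5) values over 12953 genes. For Foxf1 they were the endothelial receptor Robo4 (0.16), the homeobox gene Pknox2 (0.169) and the kinase gene Aatk (0.183). For Foxf2 they were the BMP family ligand Bmp3 (0.172), Kank4 (0.269) and the collagen-binding integrin Itga11 (0.33). For Foxl1 they included the collagen VI chain Col6a4 (0.313) and the protein C receptor Procr (0.352). The single nearest gene was farther from Foxl1 than from Foxf1 or Foxf2.

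Col6a4 had 35.7 ± 7.30 CPM in cyclopamine intestine, 919 ± 218 CPM in mesenchyme and 29.5 ± 17.8 CPM in epithelium (SD, n = 3 each). For Foxp2 the nearest genes were Hand1 (0.125), Hand2 (0.156), both basic helix-loop-helix factors, and Astn1 (0.156), and for Foxp1 Gm9776 came first (0.0674). Among the members, Foxf1 and Foxf2 were nearest to each other, at an RMS difference of 0.472, and Foxp1 and Foxp2 were 1.85 apart. Foxc1 and Foxc2 were under 5 CPM in each group mean and were not compared.

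The rest of the forkhead family was measured through 37 further genes, of which 21 were tested and 16 reached 10 CPM in the mean of a group. Of those tested, 6 were higher in mesenchyme than in epithelium and 6 lower, as were 35.1% and 34.6% of all genes tested. Foxa1 and Foxa3, factors of gut endoderm, were lower in mesenchyme than in epithelium, at -4.97 and -4.75 on the log2 scale (adjusted p = 1.93e-05 and 4.64e-06). Foxd3, a factor of neural crest, was higher in mesenchyme by 3.78 (adjusted p = 5.99e-06), below the values of Foxf1, Foxf2, Foxl1 and Foxp2.

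In cyclopamine intestine minus mesenchyme, 3 of these 21 genes were higher and 3 lower, as were 20.8% and 20.5% of all genes tested. The lower ones were Foxj2 at -0.96, Foxp3 at -0.67 and Foxm1 at -0.61 (adjusted p = 0.00571, 0.0434 and 0.0437), none of them as far down as Foxf1. Foxp4, the other relative of Foxp1 and Foxp2 at a high level, was lower in mesenchyme than in epithelium, at -1.30 ± 0.21 on the log2 scale (SE, adjusted p = 0.000326). Foxp2, Foxp1 and Foxp4 thus spanned values from 4.13 to -1.30 between mesenchyme and epithelium.

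**Figure D5:**
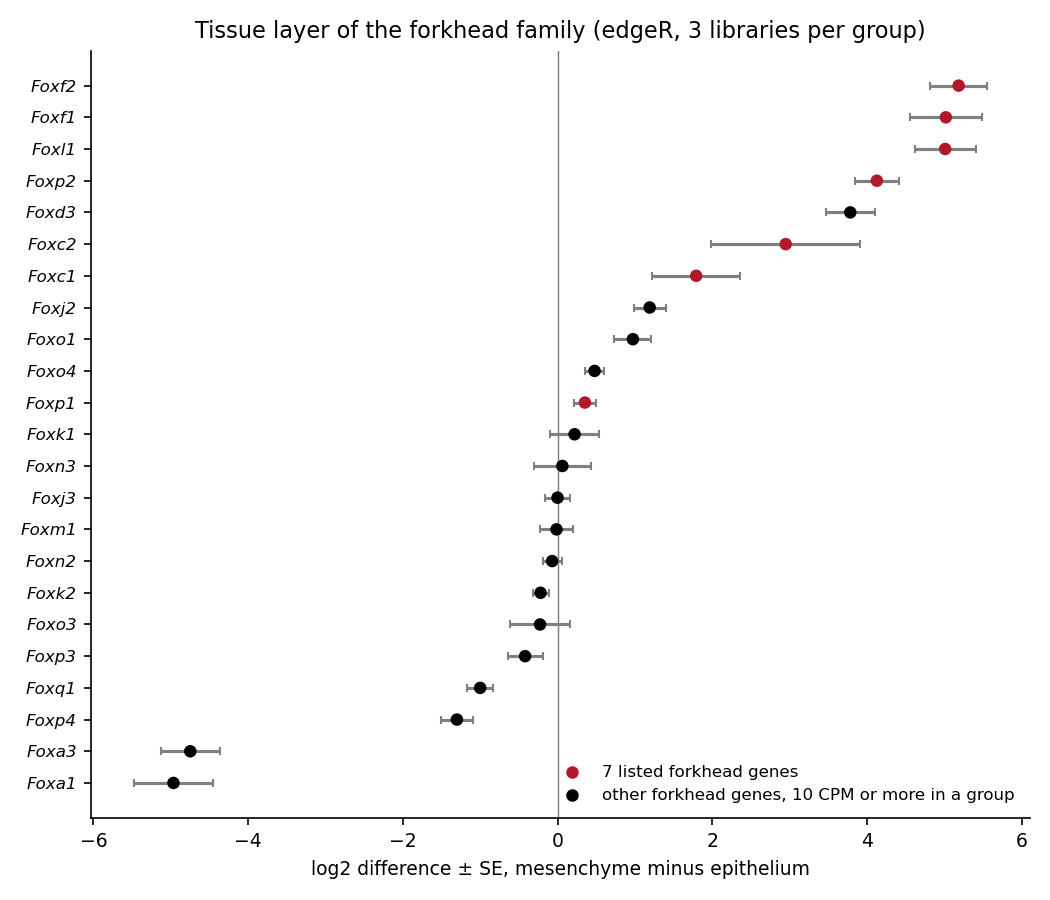
Log2 difference with its SE for mesenchyme minus epithelium, for the 7 forkhead genes (red) and 16 other forkhead genes at 10 CPM or more in a group (black). Foxf2, Foxf1, Foxl1 and Foxp2 lie at the top, between 4.13 and 5.18, and Foxa3 and Foxa1 at the bottom.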

How the data were processed

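The members and gene lists were chosen with earlier results of these data known. Per the submitters' processing notes, TopHat2 2.0.13, DESeq and the build mm9 were used. No source used here names the counting program, its strand setting or its annotation. The authors deposited whole read counts for 24016 identifiers in 9 libraries. Per the file headers, the deposited tables further give each group's mean as a signal of size-factor-normalised counts, the fold (the second mean over the first) and p-values. Spreadsheet software had turned 27 symbols into dates, and all were named through RefSeq accessions.

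Counts were fitted with edgeR 4.0.16 in R 4.3.3 over all 9 libraries (filterByExpr with a minimum count of 10, TMM, quasi-likelihood F test, two-sided, Benjamini-Hochberg adjustment, threshold 0.05). SE is the log2 difference over the square root of F. Ratios had 0.5 added to each count and an exact permutation test over samples. Transcript lengths came from GENCODE on GRCm38 for the files' RefSeq accessions. Tested on simulated data for cyclopamine intestine against mesenchyme (15489 genes), the fit called 51% of the genes changed 2-fold, 90% of those changed 4-fold and 8 unchanged ones. There each unchanged gene had the same mean in all groups, and the changed genes were only raised, in cyclopamine intestine. The real groups differ in far more genes and in both directions, so these rates may not hold for them. Replicates differed by more than sampling noise, with a chi-square per degree of freedom of 9.70 to 1440. The values of 1150 and 1440 belonged to the pairs with mesenchyme 1, and the other pairs lay between 9.70 and 34.6. Rn45s was included in this check. Alternatives were DESeq2 1.42.0, no filter, the 2 groups alone, a replicate block, other scalings and libraries left out. Named genes were all members, other forkhead genes at 10 CPM, 7 set genes, up to 4 per list by size, 2 neighbours per side and the 3 nearest profiles. The text describes a part of these, and some items are not reported here.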

Additional observations from a re-analysis of the deposited data

How the results depend on the processing

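Foxl1 and Foxf2 kept direction and call in cyclopamine intestine minus mesenchyme under all alternatives run, as did Foxf1, Foxf2, Foxl1 and Foxp2 in mesenchyme minus epithelium. Over all single-gene values, 263 kept direction and side of the threshold, 9 changed direction, 22 lost a call and 6 gained one. The 63 values of ratios kept direction, and their exact tests could not pass the threshold in any setting. With cyclopamine intestine and mesenchyme scaled to structural genes, their difference was -0.78 for Foxf1 (call lost), 1.03 for Foxc1, 0.54 for Foxc2, 1.11 for Foxp1 and 1.36 for Foxp2, with 11186 genes higher and 219 lower. With genes 16-fold or more higher in mesenchyme it was 0.55 for Foxc1, 0.074 for Foxc2, 0.79 for Foxp1 and 1.00 for Foxp2, with 8826 higher and 544 lower. These scalings raise all genes by construction. With DESeq2, Foxp1 was at -0.042 in cyclopamine intestine minus mesenchyme and Foxc1 lost its call at 1.69 in cyclopamine intestine minus epithelium. Foxp1 lost its call in mesenchyme minus epithelium with only these groups in the fit (0.44) and without Rn45s, Lars2 and Mir6236 (0.35). The cause was not tested.

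With the replicate number as a block, Foxp1 lost its call in mesenchyme minus epithelium (0.35, adjusted p = 0.0734) and in cyclopamine intestine minus epithelium (0.36, adjusted p = 0.0698), and no other call changed. The libraries share only a number: 4 of 9 pairs of same-numbered libraries deviated together at a correlation over 0.1 (range -0.202 to 0.296), and 10 of 18 checks found a library closest to its own number. The number of genes lower in cyclopamine intestine than in mesenchyme was 3235 with the block, against 3211.

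Leaving out 1 library at a time, mesenchyme minus epithelium ranged from 1.62 to 2.35 for Foxc1, 2.45 to 6.58 for Foxc2 and 0.21 to 0.46 for Foxp1. The last lost its call without mesenchyme 1 or 3 or epithelium 1 or 2, and Foxc1 and Foxc2 without epithelium 2 or 3. Cyclopamine intestine minus mesenchyme ranged from -0.48 to 0.16 for Foxc1, -1.39 to -0.21 for Foxc2 and -0.072 to 0.18 for Foxp1, and 1972 to 3511 genes were lower, with 1972, 2019 and 2136 without cyclopamine intestine 1, 2 and 3. Cyclopamine intestine minus epithelium ranged from -0.25 to 0.41 for Foxl1, 1.39 to 2.24 for Foxc1, 1.61 to 5.98 for Foxc2 and 0.36 to 0.50 for Foxp1. Foxc2 passed there without cyclopamine intestine 2 (2.79, adjusted p = 0.0428) or epithelium 1 (5.98, adjusted p = 0.0068). Foxp1 lost this call without cyclopamine intestine 2 or 3, mesenchyme 3 or epithelium 1, and Foxc1 without cyclopamine intestine 1 or 3 or epithelium 2 or 3. Foxc1 fell under the count filter, and so gave no value, with only the compared groups and without mesenchyme 2, as did Foxc2 with epithelium and 1 other group. Depth limits Foxc1 and Foxc2, which had at most 16 counts in a library.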
